A study of Homo sapiens with 4 samples.

Results

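Small nucleolar RNA host transcripts were described on 4 Affymetrix U133 Plus 2.0 arrays of breast cancer cells. A host was taken as any probe set (a group of short probes that reads 1 transcript or a few related ones) whose platform annotation lists a symbol beginning with SNORA, SNORD, SCARNA or SNHG, or GAS5. Those that also list a ribosomal protein symbol (RPL or RPS) were dropped, which left 123 of the 54675 probe sets on the array. They were chosen by their annotation and by earlier results of these data, in which signals with JPH203 over control in T-47D cells were high, so the JPH203 ratios below are a description and carry no test. T-47D, a line with the estrogen receptor, and MDA-MB-231, a triple negative line, each received 100 μM JPH203, an inhibitor of the amino acid transporter LAT1, or 100 μM Captisol, a modified cyclodextrin vehicle, as the control. RNA was taken after 24 h, and each of the 4 conditions was hybridised to 1 array, so that no value has a replicate, an error or a p-value. The comparison asks how the transcripts of each line differed under the LAT1 inhibitor. The authors report that less JPH203 was needed to slow the growth of T-47D than of MDA-MB-231 cells. An equal dose is therefore not an equal effect on growth.

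Small nucleolar RNAs are cut from the introns of host transcripts. Those of the box C/D kind (SNORD) guide 2'-O-methylation of ribosomal RNA, those of the box H/ACA kind (SNORA) guide pseudouridylation, and the related SCARNA molecules act on spliceosomal RNAs. Some hosts encode proteins, often of the translation machinery, while the spliced exons of the SNHG and GAS5 hosts encode no protein known to be needed. Several hosts start with a terminal oligopyrimidine tract (5'TOP), a start that in mRNAs places translation under the mTOR pathway, and the spliced GAS5 RNA is known to be broken down by nonsense-mediated decay when it is translated. Arrays of this type read the polyadenylated host and not the small RNA itself.

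Of the 123 probe sets, 41 belonged to 25 noncoding hosts (an SNHG symbol or GAS5 and no protein-coding symbol) and 45 to 19 protein-coding hosts. A further 9 list SNHG4 together with MATR3, a protein-coding gene, and 28 list neither kind of host, most of them a small RNA symbol alone. An SNORD symbol was listed by 55 probe sets, an SNORA symbol by 46 and a SCARNA symbol by 6, for 104 distinct small RNAs. Only 35 of the probe sets list a single symbol and 88 list several, usually a host with the small RNAs in its introns, so each is named here by the host in its annotation. Of the 162 symbols listed, 161 matched a RefSeq gene. A probe set was called measured in a line at a signal of at least 100 on 1 of its 2 arrays, which 56 members reached in T-47D cells and 52 in MDA-MB-231 cells.

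The starts of 8 noncoding hosts are shown as background to the motif counts further on, and no ratio given here rests on them. They are the 4 hosts with the highest ratios in T-47D cells (SNHG1, GAS5, SNHG32 and SNHG8), SNHG5 and SNHG12 for the pyrimidine tract at their first base, and both hosts whose probe sets pointed in opposite directions. Each window was taken from RefSeq (GRCh38.p14) and holds 50 bases before and 50 bases from the annotated start. Capitals mark the first C that is followed by 4 or more C or T within the 50 transcribed bases.
SNHG1 (chr11:62855836-62855935, minus strand): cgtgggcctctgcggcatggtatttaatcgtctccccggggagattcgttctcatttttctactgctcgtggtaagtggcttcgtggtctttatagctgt
GAS5 (chr1:173868996-173869095, minus strand): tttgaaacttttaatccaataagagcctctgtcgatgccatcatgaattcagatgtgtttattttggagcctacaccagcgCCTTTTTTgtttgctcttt
SNHG32 (chr6:31834866-31834965, plus strand): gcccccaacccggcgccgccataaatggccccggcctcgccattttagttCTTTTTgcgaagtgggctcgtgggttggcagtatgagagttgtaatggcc
SNHG8 (chr4:118278712-118278811, plus strand): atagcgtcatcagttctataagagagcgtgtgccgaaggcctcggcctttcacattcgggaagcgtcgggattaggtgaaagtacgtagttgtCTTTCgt
SNHG5 (chr6:85678684-85678783, minus strand): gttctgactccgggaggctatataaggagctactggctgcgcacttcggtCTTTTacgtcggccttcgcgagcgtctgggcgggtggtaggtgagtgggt
SNHG12 (chr1:28581824-28581923, minus strand): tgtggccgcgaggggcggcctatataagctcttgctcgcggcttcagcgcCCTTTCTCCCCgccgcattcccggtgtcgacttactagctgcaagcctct
SNHG16 (chr17:76557714-76557813, plus strand): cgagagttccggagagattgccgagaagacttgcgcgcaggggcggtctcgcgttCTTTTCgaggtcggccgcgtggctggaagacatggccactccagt
SNHG17 (chr20:38435279-38435378, minus strand): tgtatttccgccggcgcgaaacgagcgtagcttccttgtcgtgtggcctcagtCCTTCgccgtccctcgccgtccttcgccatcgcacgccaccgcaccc
The tract began at the first transcribed base in SNHG32, SNHG5 and SNHG12, where it ran for 6, 5 and 11 bases. In GAS5 it began at base 32 of the annotated transcript, and SNHG1 held none within its 50 transcribed bases.

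The arrays held 10831 to 11857 probe sets at a signal of at least 100 and median signals of 11.9 to 15.6, and each had a trimmed mean of 100. In the control arrays all 8 luminal marker genes were lower in MDA-MB-231 than in T-47D by at least 1.5-fold, and 6 of 6 measured mesenchymal markers were higher by as much. The T-47D pair was the more dispersed. The log2 ratio of JPH203 over control had an SD over all measured probe sets of 0.57 in T-47D cells and 0.22 in MDA-MB-231 cells. It also followed the signal in T-47D cells, from -0.34 at a signal of 100 to 0.47 at 10000, against 0.06 and -0.08 in MDA-MB-231 cells. The 3' to 5' signal ratio of the ACTB control probe sets was 1.72 with JPH203 and 1.39 in the control in T-47D cells, and 1.44 and 1.45 in MDA-MB-231 cells, while that of GAPDH went the other way, at 0.867 with JPH203 and 0.940 in the control in T-47D cells, and 1.01 and 0.987 in MDA-MB-231 cells. The 24 probe sets for the bacterial poly-A spike-ins dap, lys, phe and thr were 1.56-fold higher on the JPH203 array in T-47D cells and 0.927-fold in MDA-MB-231 cells. The sources used here do not say whether spike-ins were added, or in what amount to each sample. These probe sets had signals of at least 68.1 on every array, and those for the spike-in TrpnX at most 13.6, so values scaled to the spike-ins assume an equal addition that could not be checked. Their part, and that of RNA quality, in the results below was not tested.

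In T-47D cells the noncoding hosts were higher with JPH203. Of 21 measured probe sets from 15 hosts, 19 lay above the control signal, where 45.6% of all 12064 measured probe sets did. Their median log2 ratio was 1.02, a ratio of 2.03, against -0.06 for all measured probe sets. At 1.5-fold, 16 rose and 0 fell, against a background of 12.3% higher and 18.5% lower, and at 2-fold 11 rose and 0 fell, against 2.97% and 4.43%. Every one of the 21 reached 100 on both arrays, so none entered through 1 array alone. In 13 of the 15 hosts all measured probe sets lay above the control, and in SNHG16 and SNHG17 they were split. These directions hold on the deposited scale, after median centring and after quantile normalization. Scaling to the spike-ins shifted all measured probe sets by -0.64 in log2 and left 15 of the 21 above the control. Of the 21, 8 were then at 1.5-fold higher and 3 at 1.5-fold lower. A shift common to all probe sets cannot change the gap between the noncoding median and that of all, 1.09 on the deposited scale. After quantile normalization, which can change it, that gap was 0.87. Signals are relative to all RNA on an array, so more host RNA and less of other RNA in each cell cannot be told apart.

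SNHG1, a noncoding transcript that carries 8 listed SNORD molecules in its introns, had the largest ratio of the hosts. Its signal was 2188 with JPH203 and 386 in the control in T-47D cells, a ratio of 5.67, which ranked 7 of 12064. In MDA-MB-231 cells it was 1174 with JPH203 and 1583 in the control, a ratio of 0.742. The JPH203 array was thus the higher in T-47D cells and the lower in MDA-MB-231 cells.

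GAS5, the growth arrest-specific transcript, also lists 8 SNORD molecules and was read by 4 measured probe sets in T-47D cells, all of them at least 3-fold above the control. Probe set 227517_s_at had a signal of 568 with JPH203 and 105 in the control, a ratio of 5.38. The pair of _x_at probe sets, a suffix for probes that can also bind other transcripts, gave 11429 with JPH203 and 2809.5 in the control (224741_x_at, 4.07-fold), and 12023 with JPH203 and 3238 in the control (224841_x_at, 3.71-fold). Probe set 228238_at gave 484 with JPH203 and 146 in the control, 3.31-fold. In MDA-MB-231 cells the same pair differed little, with 1809.7 with JPH203 and 1667 in the control, and 1809.4 with JPH203 and 1624 in the control. There 227517_s_at was 159 with JPH203 and 189 in the control, and 228238_at stayed below 100 on both arrays, at 65.4 and 70.4.

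A group of 6 hosts followed, at between 2.03-fold and 3.01-fold in T-47D cells. SNHG32, whose start is a pyrimidine tract, had a signal of 5627 with JPH203 and 1871 in the control (3.01-fold). SNHG8, which hosts SNORA24, had 3197 with JPH203 and 1203 in the control (2.66-fold). SNHG29, host of 3 listed SNORD molecules, had 4874 with JPH203 and 2072 in the control (2.35-fold). All 3 lay between 1.10-fold and 1.17-fold of their control in MDA-MB-231 cells. SNHG6, host of SNORD87, had 6838 with JPH203 and 2932 in the control in T-47D cells (2.33-fold), against 2254 with JPH203 and 2292 in the control in MDA-MB-231 cells. SNHG15, host of SNORA9, had 648 with JPH203 and 315 in the control (2.05-fold) in T-47D cells, and 254 with JPH203 and 321 in the control in MDA-MB-231 cells. SNHG5, host of SNORD50A and SNORD50B, had 12213 with JPH203 and 6019.6 in the control in T-47D cells (2.03-fold), and 4952 with JPH203 and 4476 in the control in MDA-MB-231 cells. None of these hosts reached 1.5-fold in MDA-MB-231 cells in either direction, where 1.23% of all measured probe sets were higher and 0.732% lower.

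Smaller ratios in T-47D cells were those of SNHG12 (1.92), SNHG7 (1.79), SNHG11 (1.66), 1 probe set of SNHG33 (1.62) and SNHG19 (1.51). SNHG12, which lists 3 SNORA molecules, had a signal of 244 with JPH203 and 127 in the control. SNHG7, which lists a pair of SNORA molecules, had 1562 with JPH203 and 873.5 in the control. SNHG11 had 393 with JPH203 and 237 in the control, and stayed below 100 on both MDA-MB-231 arrays. SNHG19 had 1108 with JPH203 and 735 in the control. The 2 probe sets of SNHG33 gave 189 with JPH203 and 117 in the control, and 113 with JPH203 and 103 in the control, the second a ratio of 1.09.

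SNHG16 and SNHG17 were the exceptions in T-47D cells. SNHG16 had a signal of 1596 with JPH203 and 1183 in the control by probe set 224601_at (1.35-fold), but 382 with JPH203 and 539 in the control by 224603_at (0.708-fold). SNHG17 had 298.9 with JPH203 and 291 in the control by 65588_at, and 247 with JPH203 and 291 in the control by 225857_s_at. None of these 4 probe sets reached 1.5-fold on the deposited scale, and within each host one lay above and one below the control.

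**Figure D1:**
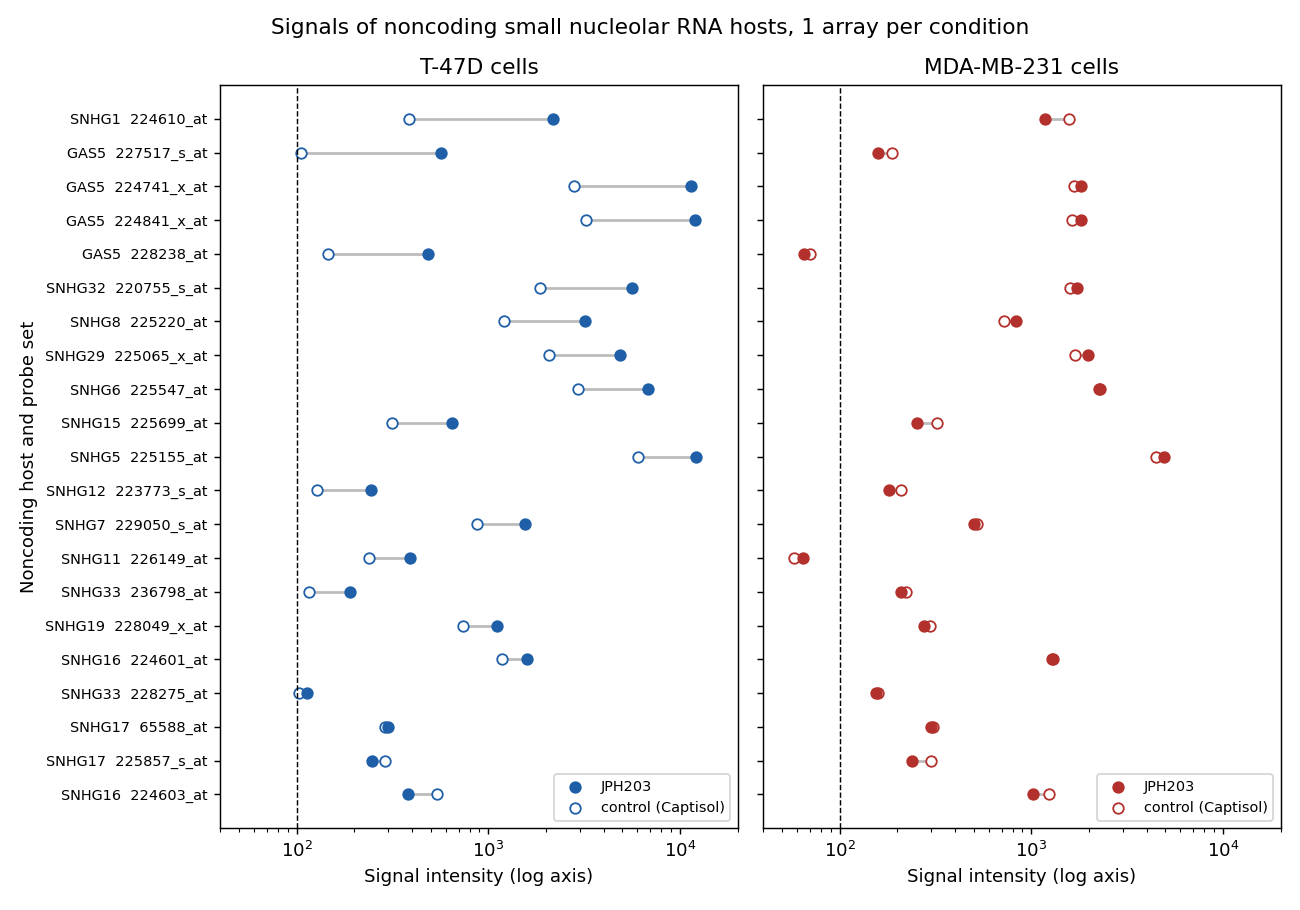
Signal intensity (log axis) of each noncoding host probe set measured in either line, with JPH203 as filled points and the Captisol control as open points, T-47D cells on the left and MDA-MB-231 cells on the right, 1 array per point. The dashed line marks a signal of 100; in T-47D cells 19 of the 21 filled points lie to the right of their open point, by up to 5.67-fold for SNHG1, while in MDA-MB-231 cells the pairs nearly coincide, with ratios between 0.742 and 1.17 among the 19 measured there.

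In MDA-MB-231 cells the same hosts differed little between JPH203 and control. Of 19 measured probe sets from 14 hosts, 6 lay above the control, where 48.4% of all 12155 did, and the median log2 ratio was -0.03 against -0.01 for all measured probe sets. None of the 19 reached 1.5-fold, against a background of 1.23% higher and 0.732% lower, and none reached 2-fold, against 0.181% and 0.0658%, so these counts were near it. The log2 ratios of the 19 had an SD of 0.20, against 0.22 for all measured probe sets, so small differences were not particular to these hosts. Scaled to the spike-ins, 12 of the 19 lay above the control, with 0 at 1.5-fold. The highest ratios were those of SNHG8 (1.17) and SNHG29 (1.16), and the lowest those of SNHG1 (0.742), SNHG15 (0.793) and SNHG17 by 225857_s_at (0.796). The difference in log2 ratio, T-47D minus MDA-MB-231, was largest for SNHG1 at 2.93 and next for GAS5 by 227517_s_at at 2.67. That difference was not tested, and the larger spread of all ratios in the T-47D pair stands beside it.

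**Figure D2:**
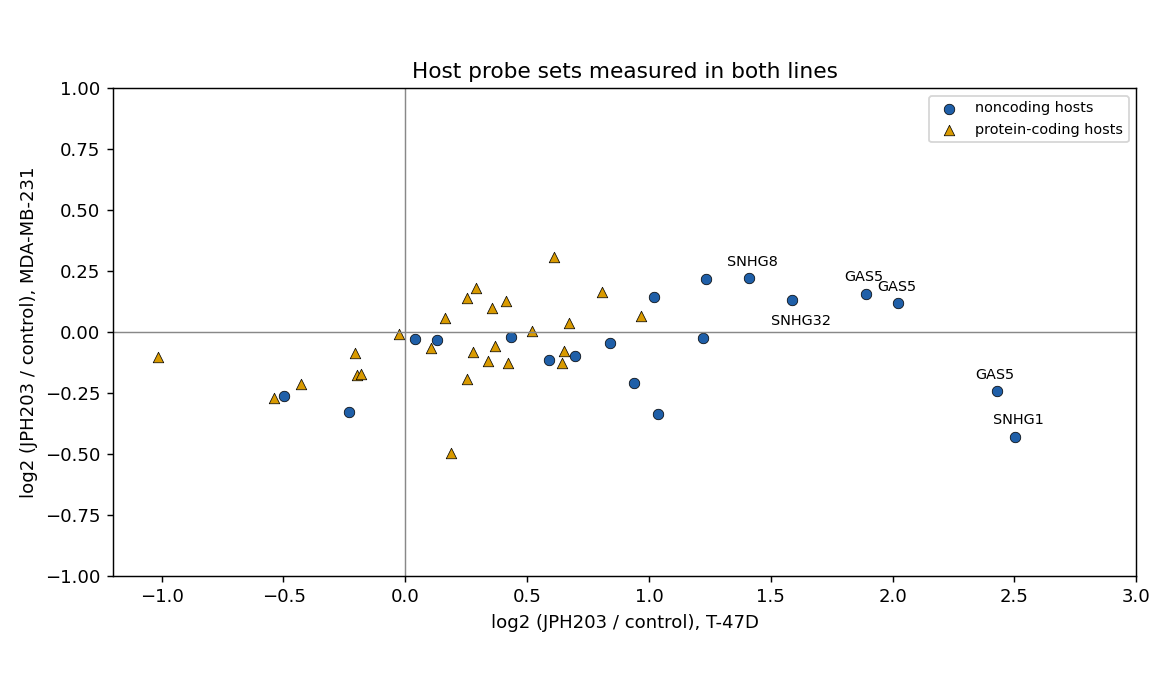
Log2 ratio of JPH203 over control in T-47D cells (horizontal axis) and MDA-MB-231 cells (vertical axis) for noncoding hosts (circles) and protein-coding hosts (triangles) measured in both lines, each point 1 probe set from 1 array per condition. The noncoding hosts spread to 2.50 along the T-47D axis and stay between -0.43 and 0.22 along the MDA-MB-231 axis.

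Noncoding hosts that list different kinds of small RNA were compared within T-47D cells. Of all probe sets measured there, 45.6% lay above the control and 2.97% were at 2-fold higher. The 10 measured probe sets that list an SNORD symbol had a median log2 ratio of 1.48, with 9 above the control and 8 past 2-fold. The 5 that list an SNORA symbol had a median of 0.94, with 5 above the control and 2 past 2-fold. The 6 that list no small RNA had a median of 0.36, and 1 of them, SNHG32, was past 2-fold. Within this last group SNHG17 and SNHG33 were each read by more than 1 probe set. Another SNHG17 probe set, below the minimum signal, lists SNORA71B. An empty list is thus a trait of a probe set's annotation and does not mean that the host carries no small RNA. After removal of the trend of the ratio on signal, the medians of the SNORD and SNORA groups were 1.25 and 1.10. Then 5 of 10 and 3 of 5 were past 2-fold, against 564 of all 12064 measured probe sets. The distance between these groups thus depended on this step, and the order of their shares turned. In the SNORD group 4 of the 10 probe sets read the same host, GAS5. The same 3 groups had medians of -0.02, -0.13 and -0.07 in MDA-MB-231 cells. With few hosts in each group and 1 array per condition these values are a description.

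The noncoding hosts are short genes, with a median length of 4.27 kb (0.577 to 31.7 kb over 15 hosts in RefSeq), against 11.1 kb for the 15 protein-coding hosts measured in T-47D cells. Other noncoding RNAs were also higher in T-47D cells with JPH203 on the deposited scale, but not after scaling to the spike-ins. Over 143 measured probe sets that name a single lncRNA gene outside the members, the median log2 ratio was 0.41, 110 lay above the control and 34.3% were at 1.5-fold higher, against a background of 45.6% and 12.3%. The median was 0.51 after removal of the trend on signal and -0.24 after scaling to the spike-ins, which left 44 above the control. Only the members were taken out of this lncRNA set. It can therefore hold small nucleolar RNA hosts outside the members, such as ZFAS1 and EPB41L4A-AS1, which are given in the last section. Over 905 probe sets naming a protein-coding gene under 5 kb the median was 0.18 with 17.2% at 1.5-fold higher, and over all 10816 naming a single gene it was -0.08 with 12.0%. The corresponding medians in MDA-MB-231 cells were 0.05 for lncRNA genes, -0.02 for short protein-coding genes and -0.01 for all. These sets were chosen after the values were seen. The part of gene length or RNA class in the ratios of the noncoding hosts was not tested.

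Protein-coding hosts had smaller ratios. In T-47D cells 28 probe sets from 15 hosts were measured, 3 of them on 1 array alone, with a median log2 ratio of 0.28 on the deposited scale, 20 above the control, 6 at 1.5-fold higher and 2 at 1.5-fold lower. Over all measured probe sets 45.6% lay above the control, 12.3% were at 1.5-fold higher and 18.5% lower. The median was 0.06 after removal of the trend and -0.36 after scaling to the spike-ins, which turned its sign. The highest was TAF1D, a subunit of the RNA polymerase I factor SL1 that lists 6 small RNAs, with 803 with JPH203 and 410.3 in the control (1.96-fold, 221580_s_at) and 611 with JPH203 and 399.8 in the control (1.53-fold, 222728_s_at). EEF1B2, an exchange factor of translation elongation, had 9643 with JPH203 and 5503 in the control (1.75-fold). RBMX, an RNA-binding protein of splicing, had 2082 with JPH203 and 1306 in the control (1.59-fold, 213762_x_at). EIF4A2, a helicase of translation initiation, had 9001 with JPH203 and 5723 in the control (1.57-fold), and DDX39B, a helicase of mRNA export, had 643.5 with JPH203 and 412.5 in the control (1.56-fold).

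The lowest ratios among protein-coding hosts in T-47D cells, among those that reached 100 on both arrays, were those of TCP1 and DKC1. TCP1, a subunit of the chaperonin that folds actin and tubulin, had 841 with JPH203 and 1223 in the control (0.687-fold, 208778_s_at), while its other probe sets were at 0.883-fold and 0.982-fold. DKC1, the pseudouridine synthase of box H/ACA particles and itself host of SNORA56, had 253 with JPH203 and 340.4 in the control (0.743-fold, 201478_s_at) and was at 0.872-fold by 201479_at. TBRG4, a regulator of mitochondrial RNA, was at 0.868-fold. Both probe sets called lower had a JPH203 signal below 100, namely DKC1 by 216212_s_at with 66.6 with JPH203 and 135 in the control, and SNRPN, a splicing protein gene, with 61.7 with JPH203 and 100.2 in the control.

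In MDA-MB-231 cells 27 protein-coding host probe sets from 14 hosts had a median log2 ratio of -0.07. Of these, 11 lay above the control, where 48.4% of all measured probe sets did. At 1.5-fold 0 were called in either direction, against a background of 1.23% higher and 0.732% lower, so this count was near it. TAF1D was again the highest, with 1114 with JPH203 and 899.7 in the control (1.24-fold, 222728_s_at). It was followed by RABGGTB, a subunit of Rab geranylgeranyl transferase (1.17-fold and 1.07-fold), NOP53, a ribosome assembly factor (1.13-fold and 1.09-fold), and EEF1B2 (1.12-fold). NOP56, a core protein of box C/D particles, was the lowest, with 331 with JPH203 and 467 in the control (0.709-fold, 200874_s_at) and 0.876-fold by its other probe set. TCP1 (0.828-fold, 0.888-fold and 0.995-fold) and DKC1 (0.863-fold, 0.886-fold and 0.931-fold) each had 1 probe set nearer to the control than the others.

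**Figure D3:**
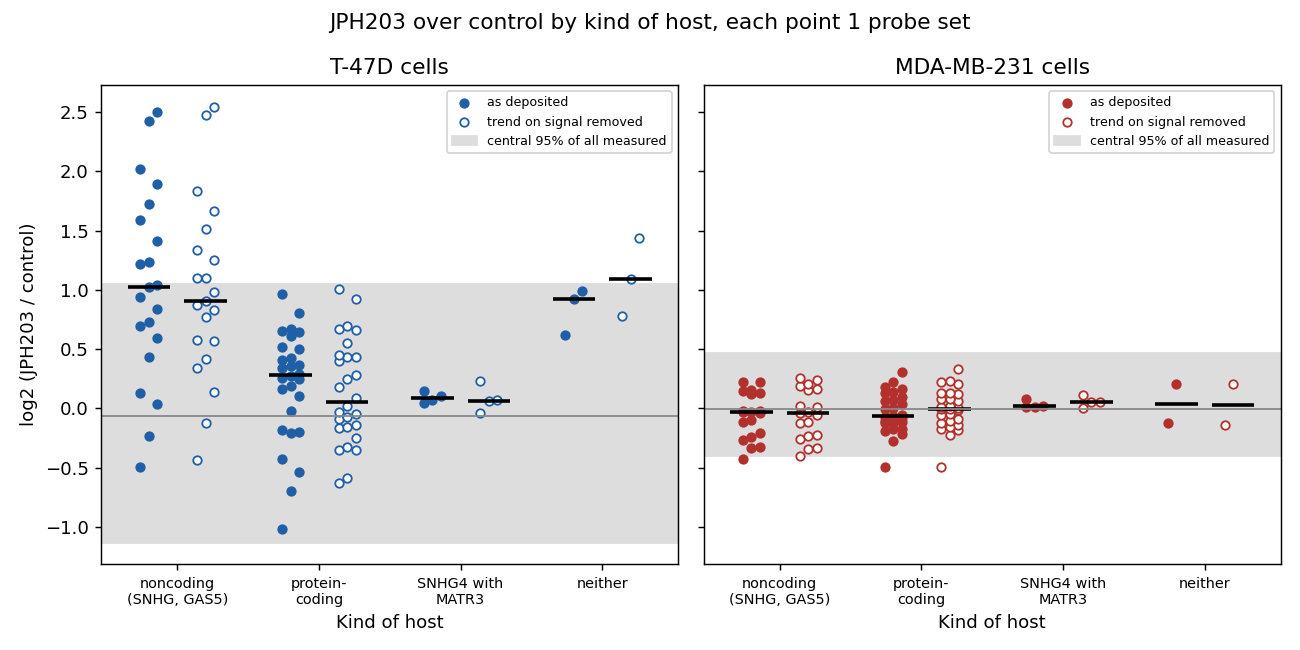
Log2 ratio of JPH203 over control for each measured member by kind of host, T-47D cells on the left and MDA-MB-231 cells on the right, as deposited (filled) and after removal of the trend on signal (open). Each point is 1 probe set, the thick bar is the median, the grey line is the median of all measured probe sets and the grey band holds the central 95% of them; in T-47D cells the noncoding medians are 1.02 and 0.91 and the protein-coding medians 0.28 and 0.06.

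The other members were few. The 4 measured probe sets that list SNHG4 with MATR3, a nuclear matrix protein, lay between 1.03-fold and 1.11-fold in T-47D cells and between 1.01-fold and 1.06-fold in MDA-MB-231 cells. Among those that list neither kind of host, SNORD104 with SNORA50C had 388 with JPH203 and 196 in the control in T-47D cells (1.99-fold), against 199 with JPH203 and 217 in the control in MDA-MB-231 cells. C19orf48P, which lists SNORD88C, had 215 with JPH203 and 140.4 in the control (1.53-fold) in T-47D cells and was at 1.15-fold in MDA-MB-231 cells. The probe set that lists PWARSN and IPW with 7 SNORD symbols was measured in T-47D cells through the JPH203 array alone, at 112 against 58.9 in the control.

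The 56 probe sets dropped for a ribosomal protein symbol also read small nucleolar RNA hosts, and they formed a narrower group. In T-47D cells 44 of 44 measured lay above the control at a median log2 ratio of 0.56, between 1.34-fold and 1.91-fold. Of all measured probe sets 45.6% lay above the control. That median was 0.04 after removal of the trend on signal and -0.09 after scaling to the spike-ins, which left 10 of the 44 above the control. In MDA-MB-231 cells 4 of 44 lay above the control, at a median of -0.09, where 48.4% of all did, and scaling to the spike-ins turned this too, to 25 of 44 at a median of 0.0217.

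In T-47D cells, removal of the trend on signal lowered the median of the noncoding hosts less than that of the protein-coding ones. The trend is a smoothed line (lowess) of the log2 ratio on the mean log2 signal over all measured probe sets. After its removal the noncoding hosts had a median of 0.91, with 19 of 21 above the line, 14 at 1.5-fold higher and 0 lower, against a background of 14.1% and 12.0%, while the protein-coding hosts had 5 of 28 at 1.5-fold higher and 1 lower. GAS5 by 227517_s_at then had the largest value, 2.55, followed by SNHG1 at 2.48. SNHG5 was at 0.58 after removal and EEF1B2 at 0.40, against 1.02 and 0.81 before it. In MDA-MB-231 cells 0 of 19 noncoding host probe sets were called in either direction after removal, against 1.04% higher and 0.798% lower, so this count was near the background. A probe set's own change shifts it along the signal axis, so this step takes away part of a large change.

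**Figure D4:**
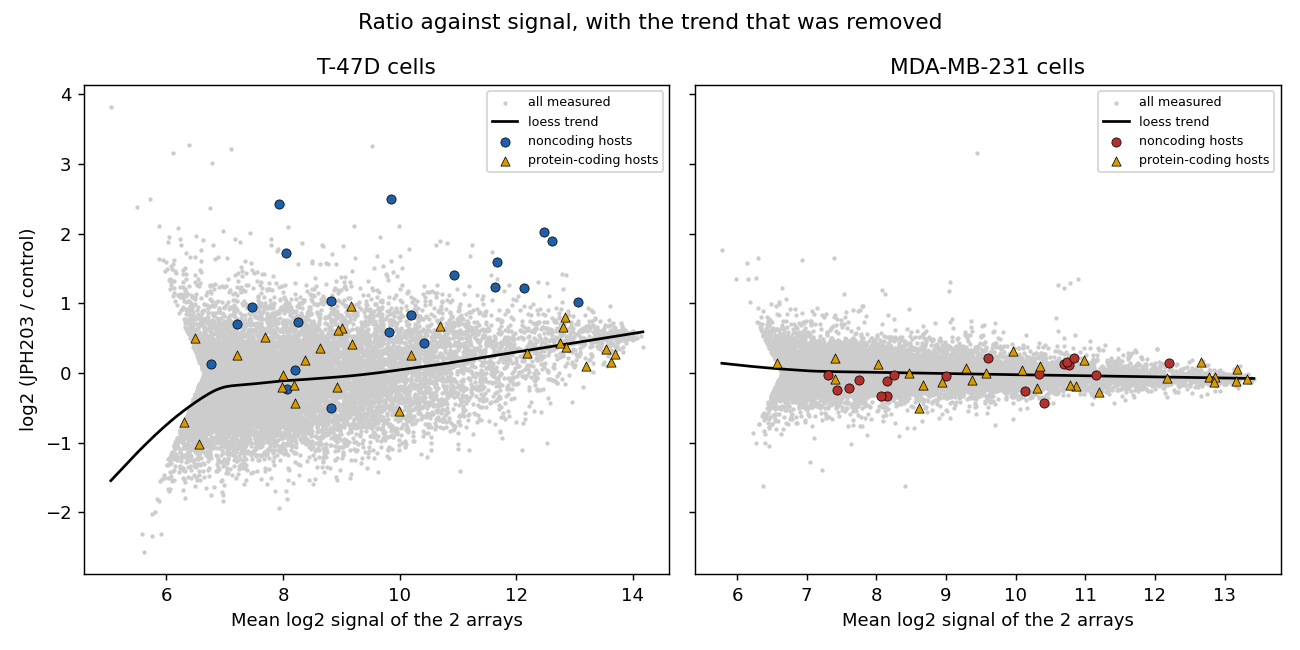
Log2 ratio of JPH203 over control (vertical axis) against the mean log2 signal of both arrays of a line (horizontal axis), T-47D cells on the left and MDA-MB-231 cells on the right. Grey points are all measured probe sets (12064 and 12155), the black line is the lowess trend, circles are noncoding hosts and triangles protein-coding hosts; the noncoding hosts of T-47D cells lie mostly above the line at all signals, and the protein-coding hosts around it.

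The comparison of the control arrays was not free of the choice of members, since the T-47D control signal also entered the JPH203 ratios. A low signal on that array raises both ratios. The control arrays gave the level of each host in Captisol-treated MDA-MB-231 over Captisol-treated T-47D cells. The 21 noncoding probe sets measured there had a median log2 ratio of -0.24, of which 10 lay above 0, and this sign turned under other minimum signals and under scaling to the spike-ins. At 2-fold, the MDA-MB-231 control was the higher for 2 and the lower for 3, against a background of 24.4% and 22.5%. Of the 21 probe sets, 2 were measured through the T-47D control alone, SNHG11 and GAS5 by 228238_at. Both are among the 3 lower, so the filter itself favoured that direction for them. SNHG1 gave 1583 in the MDA-MB-231 control against 386 in the T-47D control, and SNHG16 by 224603_at gave 1231 in the MDA-MB-231 control against 539 in the T-47D control. By 224601_at SNHG16 gave 1296 in the MDA-MB-231 control against 1183 in the T-47D control. On the lower side, SNHG19 gave 297 in the MDA-MB-231 control against 735 in the T-47D control, SNHG11 gave 57.5 in MDA-MB-231 against 237 in T-47D, and GAS5 by 228238_at gave 70.4 in MDA-MB-231 against 146 in T-47D. The other measured GAS5 probe sets were split. By 227517_s_at the MDA-MB-231 control was the higher, at 189 against 105. By 224741_x_at and 224841_x_at it was the lower, at 1667 against 2809.5 and 1624 against 3238. With JPH203 the SNHG1 signal in T-47D cells, 2188, was above the 1583 of the MDA-MB-231 control.

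The machinery around these transcripts was read from lists of genes, each by its brightest probe set naming it alone. Of 17 core and assembly proteins of small nucleolar ribonucleoproteins, 14 were measured in T-47D cells at a median log2 ratio of 0.09, with 2 at 1.5-fold higher and 2 lower, against a background of 12.3% and 18.5%, so that these counts were near it. After scaling to the spike-ins the median was -0.55, with 0 at 1.5-fold higher and 7 lower. ZNHIT3, an assembly factor of box C/D particles, had 3888 with JPH203 and 1966 in the control, and NOP10, a core protein of box H/ACA particles, had 7578 with JPH203 and 4568 in the control. ZNHIT6, another box C/D assembly factor, had 157 with JPH203 and 271 in the control, and NOLC1, a chaperone of these particles, had 586 with JPH203 and 980.5 in the control. In MDA-MB-231 cells 15 were measured, at a median of -0.10, with 0 at 1.5-fold, against a background of 1.23% higher and 0.732% lower.

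Nonsense-mediated decay factors gave 7 measured genes of 15 in each line. In T-47D cells their median was -0.23 with 0 at 1.5-fold higher and 2 lower, against a background of 12.3% and 18.5%, and -0.87 after scaling to the spike-ins. UPF2, a core factor, had 91.1 with JPH203 and 249 in the control, and XRN1, a 5' to 3' exonuclease, had 86.7 with JPH203 and 202.9 in the control, both below 100 with JPH203. In MDA-MB-231 cells the median was 0.01 with 0 called, against a background of 1.23% higher and 0.732% lower.

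Of 18 non-ribosomal 5'TOP mRNAs, 14 were measured. In T-47D cells their median was 0.46, with 12 above the control and 6 at 1.5-fold higher, against a background of 45.6% and 12.3%. It was 0.07 after removal of the trend and -0.19 after scaling to the spike-ins, which left 2 above the control and 0 at 1.5-fold higher. EIF3E and EIF3H, subunits of an initiation factor, were at 1.89-fold and 1.78-fold, and TPT1 and EIF4B, another initiation factor, at 1.52-fold each. In MDA-MB-231 cells the median was -0.09 with 2 above the control, against 48.4% of all. There 0 were called at 1.5-fold, against 1.23% higher and 0.732% lower. Of 14 long noncoding RNAs chosen because they host no small nucleolar RNA, 5 were measured in T-47D cells at a median of -0.19. At 1.5-fold 1 was higher and 1 lower, against a background of 12.3% and 18.5%. TP53TG1 was at 1.66-fold, with 428 with JPH203 and 259 in the control, and TUG1 at 0.476-fold, with 283 with JPH203 and 595 in the control. In MDA-MB-231 cells 5 had a median of 0.11 with 0 called, against 1.23% higher and 0.732% lower. This short list lay below the median of the 143 lncRNA probe sets given above, so long noncoding RNAs measured in T-47D cells were not all higher.

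Short sequences near the start were counted in RefSeq windows of 13 of the 15 noncoding hosts and all 15 protein-coding hosts measured in either line. A C followed by at least 4 C or T at the first transcribed base, read on the transcribed strand, was present in 4 noncoding hosts (SNHG32, SNHG5, SNHG12 and SNHG19) and 5 protein-coding hosts (CSKMT, EIF4A2, NOP53, RABGGTB and TAF1D), against 4.07% of 35116 windows. Anywhere in the 50 transcribed bases it was present in 11 of 13 and 10 of 15, against 51.0%. TGATGNAA, searched on both strands of the whole window, was in 0 of 13 and 0 of 15, against 3.62%. CACGTG, which reads the same on both strands, was in 1 noncoding host (SNHG7) and 0 protein-coding hosts, against 7.26%. Neither of these motifs holds the pyrimidine tract, all were picked after the values were seen, and a match is not a site. In T-47D cells, the 4 noncoding hosts with the tract at the first base had ratios of 3.01, 2.03, 1.92 and 1.51. Those with it only further on were GAS5 (3.31 to 5.38), SNHG8 (2.66), SNHG29 (2.35), SNHG7 (1.79), SNHG11 (1.66), SNHG16 (1.35 and 0.708) and SNHG17 (1.03 and 0.851). The 2 with none in their 50 transcribed bases were SNHG1 (5.67) and SNHG33 (1.62 and 1.09). The part of the tract in these ratios was not tested.

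Members below the minimum were many, 67 in T-47D cells and 71 in MDA-MB-231 cells. Among noncoding hosts 20 probe sets stayed below it in both lines, including all of 10 hosts (SNHG3, SNHG4, SNHG9, SNHG10, SNHG18, SNHG20, SNHG22, SNHG24, SNHG27 and SNHG28), none of which passed 52.2 on any array. Of the 28 probe sets that list neither kind of host, 25 stayed below it in T-47D cells. Just inside the minimum in T-47D cells were SNRPN at 100.2 and EIF4A1 by 214805_at at 107, and just outside were a second SNHG12 probe set at 97.0 with JPH203 and 32.4 in the control, and LINC02067 at 69.4 with JPH203 and 84.1 in the control. In MDA-MB-231 cells CSKMT at 100.4 was just inside and SCARNA15, at 56.7 with JPH203 and 99 in the control, just outside.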

How the data were processed

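Total RNA was labelled with biotin and hybridised to 1 array per condition. The authors deposited linear signal intensity values per probe set, made with GCOS, whose version and settings are not given in the sources used here. Their trimmed mean without the lowest and highest 2% was 100.0 on each array. The number of arrays limits the precision.

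Members were found by annotation. The members, gene lists and comparisons were chosen with earlier results of these data known. Protein-coding genes were those RefSeq gives that type. Named were all SNHG and GAS5 probe sets measured in either line, the 6 highest and 6 lowest protein-coding hosts with at least 100 on both arrays in each line, and up to 4 members of each list past 1.5-fold. SNRPN, DKC1 by 216212_s_at, the members of other kinds and those near the minimum were named after their values were seen.

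Ratios were taken on deposited signals, and again after removal of a lowess trend (span 0.4). The trend step was tested on simulated data. Alternatives were other scalings, a pseudocount of 16, other minimum signals, other probe sets and members, and a 2-fold threshold. Scaling to the spike-ins used 24 probe sets for dap, lys, phe and thr; TrpnX probe sets were left out after their effect was seen, and both versions are given. Whether the authors added spike-ins, and in equal amounts, is not given in the sources used here, so this scaling rests on an assumption. Its use on the gene lists, lncRNA and ribosomal protein sets was chosen after seeing the data. The sequences, motifs, length and lncRNA sets, the version without GAS5 and the dimmest probe set per host were also chosen after seeing the data. Python 3.11.15 was used, with statsmodels 0.14.6 for the trend, pandas 2.3.3 and numpy 2.4.6 for tables, and matplotlib 3.10.9 for plots.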

Additional observations from a re-analysis of the deposited data

Results flagged for a closer look

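Of the 19 noncoding host probe sets measured in both lines, 11 lay above the control with JPH203 in T-47D cells and below it in MDA-MB-231 cells, against 26.2% of all 9601 probe sets measured in both. The members were chosen with high T-47D ratios known, which by itself raises this share, so the count is a description and not an excess over all. The count depends on the scaling, at 11 with median centring, 9 with quantile normalization, 9 after removal of the trend on signal, and 4 after scaling to the spike-ins, where 3.07% of all did. The difference in log2 ratio, T-47D minus MDA-MB-231, was 2.93 for SNHG1, 2.67 for GAS5 by 227517_s_at, 1.37 for SNHG15, 1.25 for SNHG6 and 1.15 for SNHG12. It was 0.88 for SNHG7, 0.80 and 0.16 for the 2 probe sets of SNHG33, 0.71 for SNHG19, 0.45 for SNHG16 by 224601_at and 0.0672 for SNHG17 by 65588_at. These differences were not tested, since each line has 1 array per condition, and the smallest lie far inside the spread of all ratios in T-47D cells.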

How the results depend on the processing

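Of 104 recomputed values of the host medians and counts, 73 stayed within 0.1 in log2 (counts within 1.5 times) and 31 did not. The cause was not tested. The median of noncoding hosts in T-47D cells (1.02) became 0.85 with quantile normalization, 0.91 without the trend, 0.84 with no minimum signal, 0.87 without probe sets ending in _x_at or _s_at, 0.84 without GAS5, and 0.38 with spike-in scaling (0.52 with TrpnX). The count of 16 probe sets at 1.5-fold became 8 with spike-in scaling (9 with TrpnX), 25 of 41 with no minimum and 8 of 12 without _x_at and _s_at probe sets. In MDA-MB-231 cells the noncoding median (-0.03) became 0.0779 with spike-in scaling (0.12 with TrpnX), and 5 probe sets were called with no minimum. Protein-coding hosts in T-47D cells (0.28) became 0.0295 with quantile normalization, 0.0554 without the trend, 0.11 without _x_at and _s_at probe sets, 0.52 with ribosomal protein hosts kept, and turned sign with spike-in scaling, at -0.36 (-0.21 with TrpnX). In MDA-MB-231 cells (-0.07) they became 0.0449 with spike-in scaling (0.0885 with TrpnX). The control comparison (-0.24) gave -0.35 with median centring, -0.11 with quantile normalization, -0.13 without the trend and -0.11 at a minimum of 50. It turned sign at 100 on both arrays (0.0231), with no minimum (0.0522), without _x_at and _s_at probe sets (0.04997) and with spike-in scaling (1.47, or 1.31 with TrpnX). The control spike-in ratio, MDA-MB-231 over T-47D, was 0.307. No paired analysis was possible because each condition has 1 array.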

Other observations

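Other known hosts of small nucleolar RNAs carry no such symbol in the annotation and so fell outside the members. ZFAS1, DANCR and EPB41L4A-AS1 were picked after the data were seen, and all measured probe sets are given. ZFAS1 was at 2.68-fold, 2.65-fold and 2.30-fold of the control with JPH203 in T-47D cells, and at 1.25-fold, 1.23-fold and 1.27-fold in MDA-MB-231 cells. EPB41L4A-AS1 had a signal of 2110.5 with JPH203 and 614 in the control in T-47D cells (3.44-fold), and 387 with JPH203 and 269.9 in the control in MDA-MB-231 cells (1.43-fold). DANCR was at 1.16-fold in T-47D cells and 0.913-fold in MDA-MB-231 cells, short of 1.5-fold in both.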
